A study of Mus musculus with 2 samples.

Results

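The genes that flank the HoxD cluster on mouse chromosome 2 were described as a set of 8 genes, Chn1, Atf2, Lnp, Evx2, Mtx2, Hnrnpa3, Nfe2l2 and Agps. They were taken by symbol from near the cluster without a cutoff on their values, but with earlier results of these data known. The protein-coding gene Atp5g3, which lies nearer to the cluster than Atf2, is not in the set. All 8 were found among the 29311 genes listed in the deposited gene tables. RNA-seq was available for 2 samples, 1 of embryonic stem (ES) cells and 1 of E10.5 forebrain, and the study used them to compare background transcription at Hox loci between cell types in which these loci carry different chromatin marks. The ES cells were of the E14 line with a WT genotype, a single line grown without feeders on gelatin in serum and LIF, and have no age label. The forebrain was dissected from WT embryos of the B6CBAF1/J strain at stage E10.5, and the study's methods describe RNA from single embryos, while the labels give a number of cells. Neither sample carried a transgene or had a treatment that the labels name. With 1 sample per cell type no difference below could be set against a spread between replicates, so folds and intervals are given without p-values. Intervals are 95% intervals on the reads inferred from the deposited values, they cover counting error only, and reads amplified from 1 molecule are not independent. The ES cell library held 42786741 inferred reads on genes and the forebrain library 59790913.

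The HoxD cluster codes for homeodomain transcription factors that pattern the body axis, the limbs and the genitalia. It lies between large gene deserts that hold enhancers, and some of these enhancers also act on genes at the border of the deserts, of which Evx2 and Lnp are known examples in the limb. The outer flanking genes have unrelated roles in signalling, transcription, RNA binding, stress response and lipid synthesis. Per the file coordinates (NCBIM37, mm9), the cluster from Hoxd13 to Hoxd1 spanned chr2:74506367-74603200, which is 96.8 kb, and the region from the start of Chn1 to the end of Agps spanned 2.32 Mb. On the centromeric side, beyond Hoxd13, lie Evx2 at 8.4 kb, Lnp at 88.9 kb, Atf2 at 775.7 kb and Chn1 at 893.0 kb from the cluster. On the telomeric side, beyond Hoxd1, lie Mtx2 at 60.7 kb, Hnrnpa3 at 894.1 kb, Nfe2l2 at 910.4 kb and Agps at 1067.0 kb. All 4 centromeric genes are transcribed from the minus strand, as is Nfe2l2, while Mtx2, Hnrnpa3 and Agps are on the plus strand.

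The promoters of Evx2, Chn1 and Nfe2l2 are shown because these 3 genes had the largest log2 ratios of either sign in the values as deposited. Promoter sequences were taken from RefSeq on GRCm38.p6, a later build than that of the gene tables, and run from 250 bases before to 50 bases after each annotated start, written 5′ to 3′ on the strand of the gene. All 8 genes had an entry, Lnp under its current symbol Lnpk, and Chn1 had 2 starts, which the single deposited value per gene cannot separate. In the lines below, CpG dinucleotides are in capitals.
Evx2 (chr2:74659508-74659807, minus strand): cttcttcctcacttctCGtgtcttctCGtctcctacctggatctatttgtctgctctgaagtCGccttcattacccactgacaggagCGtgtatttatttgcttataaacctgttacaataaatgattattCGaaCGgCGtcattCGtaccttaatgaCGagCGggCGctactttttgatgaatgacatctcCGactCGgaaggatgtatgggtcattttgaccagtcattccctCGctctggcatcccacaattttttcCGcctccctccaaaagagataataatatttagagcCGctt
Chn1 first start (chr2:73775297-73775596, minus strand): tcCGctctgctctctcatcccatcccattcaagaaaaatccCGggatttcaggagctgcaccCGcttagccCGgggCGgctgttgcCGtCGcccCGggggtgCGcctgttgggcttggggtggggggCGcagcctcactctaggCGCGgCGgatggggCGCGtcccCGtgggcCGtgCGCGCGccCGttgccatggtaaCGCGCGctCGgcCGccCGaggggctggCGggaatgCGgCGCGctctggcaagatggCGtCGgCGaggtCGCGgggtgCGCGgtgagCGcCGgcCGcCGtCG
Chn1 second start (chr2:73660374-73660673, minus strand): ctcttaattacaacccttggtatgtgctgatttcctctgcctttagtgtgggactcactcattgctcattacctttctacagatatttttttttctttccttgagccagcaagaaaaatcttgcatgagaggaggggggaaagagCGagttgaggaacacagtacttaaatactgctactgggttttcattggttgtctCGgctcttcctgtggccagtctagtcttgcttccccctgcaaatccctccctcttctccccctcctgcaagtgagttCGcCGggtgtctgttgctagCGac
Nfe2l2 (chr2:75704614-75704913, minus strand): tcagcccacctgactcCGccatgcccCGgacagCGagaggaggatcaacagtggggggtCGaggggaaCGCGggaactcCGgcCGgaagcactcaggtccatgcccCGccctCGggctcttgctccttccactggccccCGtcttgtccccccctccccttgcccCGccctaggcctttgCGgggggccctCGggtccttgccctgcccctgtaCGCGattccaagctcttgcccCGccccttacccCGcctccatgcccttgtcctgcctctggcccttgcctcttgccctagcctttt
The first Chn1 start held 43 CpG and the second held 5, where the median over 32851 mouse promoters of this length was 7 and the quartiles were 3 and 20. The Evx2 promoter held 16 CpG at a GC content of 44.3%, and the Nfe2l2 promoter held 18 CpG at 68.7%. Among the promoters not shown, CpG numbered 44 in Hnrnpa3, 32 in Agps, 28 in Atf2, 25 in Lnp and 19 in Mtx2. Hence 1 promoter of the 9, the second start of Chn1, lay below the median of all promoters. Both strands were searched for the antioxidant response pattern TGACNNNGC, to which NFE2L2 protein binds, and for the cAMP response pattern TGACGTCA, to which ATF2 and related factors bind. The former was found in 12.4% of all promoters and the latter in 1.8%. The former matched in 3 of the 9 promoters, as TGACTCCGC in Nfe2l2, 240 bases before the start, as TGACTCCGC in Hnrnpa3, 60 bases before it, and as TGACAACGC in Mtx2, 9 bases before it and on the opposite strand. The cAMP response pattern was in none of the 9 windows.

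Both samples matched their labels by the marker genes. All 8 ES cell markers, among them Pou5f1, Nanog and Zfp42, were at least 2-fold higher in ES cells, and all 7 annotated forebrain markers, among them Lhx2 and Emx2, were at least 2-fold higher in E10.5 forebrain. The forebrain library also held RNA of other cell types. Levels are given in RPKM as deposited, which is reads per kb of exon as scaled by the authors. If the reads are inferred correctly, these values lie far above the usual scale, per 1000000 reads, in both samples. A level here therefore cannot be compared with RPKM from other sources. The 6 red blood cell markers summed to 799065 RPKM in forebrain against 373 RPKM in ES cells, and all 6 were higher in forebrain. Their sum was 1.55% of the forebrain total. The 5 mesenchyme markers summed to 7302 RPKM against 55.5, the 5 endothelium markers to 2132 against 628 and the 5 neuron markers to 4972 against 7725, of which 5, 4 and 4 were at least 2-fold higher in forebrain. Among them, Pecam1 and Stmn2 had more RNA in ES cells. In bulk RNA, fewer cells of a type and less RNA per cell cannot be told apart, and for each gene below that was higher in forebrain, the part of these other cells was not tested.

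Expression of the flanking genes did not follow 1 direction. Of the 8 genes, 1 was at least 2-fold higher in ES cells (Nfe2l2), 3 were at least 2-fold higher in E10.5 forebrain (Chn1, Lnp and Evx2) and 4 lay within 2-fold (Atf2, Mtx2, Hnrnpa3 and Agps). Over all listed genes, 23.3% were at least 2-fold higher in ES cells and 25.8% in forebrain. Over the 15553 protein-coding genes with at least 20 inferred reads in either sample, a class to which all 8 genes belong, these shares were 17.0% and 30.7%. The median log2 ratio, taken on RPKM + 1 with ES cells as the numerator, was -0.59 for the 8 genes, -0.24 for these protein-coding genes and -0.01 for all listed genes. Counts of 1 and 3 in 8 are near these backgrounds and show nothing particular to the set. The same shares are the background for the counts of related genes and of neighbours given below, which were not tested. After division of both samples by their RPKM totals, log2 ratios dropped by 0.27, or by less where the added 1 weighs on low values, and the median of all genes moved to -0.26. Nfe2l2, at 0.99, then fell just inside 2-fold and Hnrnpa3, at -1.14, passed it, so that the counts became 0 in ES cells and 4 in forebrain. Such a division moves the ratios of all abundant genes alike, so that the order of the 8 genes stayed the same is no check of it.

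**Figure D1:**
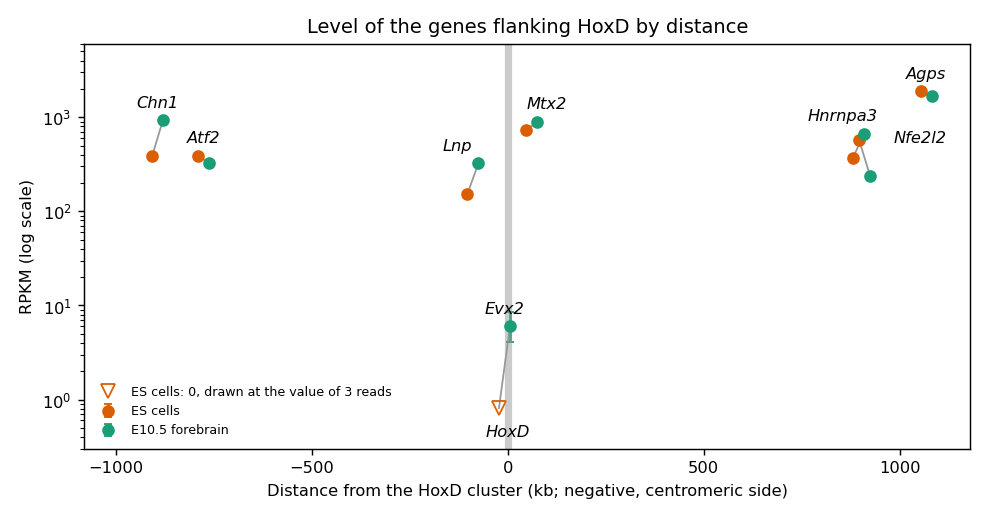
RPKM per gene (log scale) in ES cells (orange) and E10.5 forebrain (green) against distance from the HoxD cluster in kb, with 95% Poisson intervals that are mostly smaller than the points and a line joining the samples of a gene, drawn 14 kb to either side of its position. Evx2, next to the cluster, lay far below the other genes in both samples, and its ES cell value of 0 is drawn at 0.81 RPKM, the value of 3 reads.

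Evx2 (ENSMUSG00000001815, chr2:74491049-74497918 in mm9), an even-skipped homeobox gene that is known for its role in limb and neuronal patterning, was the lowest of the 8 genes in both samples. It had 0 RPKM and 0 inferred reads in ES cells and 6.01 RPKM in E10.5 forebrain (4.14 to 8.45, 33 reads). For the value of 0 in ES cells the 95% interval reaches 1.0 RPKM. A floor of 3 reads, or 0.81 RPKM, was set for it, and the forebrain value was 7.42-fold higher than this floor. The counting error of the 33 forebrain reads is not in that figure, and the 95% interval of the read ratio, which holds it, starts at 5.67-fold. The fold on RPKM + 1 was -2.81 in log2 and depends on the added 1. The forebrain value, the higher of these, was still low, at the 27.7th percentile of listed genes. It was at the 6.3rd percentile of protein-coding genes with at least 20 reads in either sample, which need not be expressed in forebrain.

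The nearest gene on the cluster side showed the reverse distribution. Hoxd13, which is transcribed in the opposite direction, away from Evx2, had 6.88 RPKM in ES cells (3.76 to 11.6, 14 reads) and 0 in forebrain. The ES cell value was 7.0-fold higher than a floor of 3 reads in forebrain. The counting error of the 14 reads is not in that figure, so a 95% bound would be lower. Summed over all listed Hoxd genes, 25 reads were found in ES cells and 6 in forebrain. Evx2 alone thus had more forebrain reads than these Hoxd genes together, with 33 against 6. The protein-coding genes nearest to Evx2 in both samples, by distance on log2(RPKM + 1) over the 2 samples, were Fcrl6, Rbp2 and Nkx3-2, at 0 in ES cells and 5.99, 6.09 and 6.14 RPKM in forebrain. Each of these rested on 5 to 15 forebrain reads, fewer than Evx2. Another 300 protein-coding genes were at 0 in ES cells with at least 20 reads in forebrain.

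Genes related to Evx2 by their homeodomain had another distribution. Evx1, its paralog next to HoxA, had 35.4 RPKM in ES cells (28.1 to 43.7, 83 reads) and 0 in forebrain. The ES cell value was 41.5-fold above the floor of 3 reads in forebrain, without the counting error of the 83 reads. Gbx2, a homeobox gene of the pluripotent state and the hindbrain border, had 460 RPKM in ES cells and 8.98 in forebrain, and Gbx1 had 8.26 and 8.08. Among these 3 genes 2 were at least 2-fold higher in ES cells and none in forebrain, with a median log2 ratio of 5.19, or 5.37 with Evx1 set against this floor.

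Lnp (ENSMUSG00000009207, chr2:74358348-74417492 in mm9) codes for lunapark, a membrane protein of the junctions between tubules of the endoplasmic reticulum. It had 153 RPKM in ES cells (144 to 162, 1147 reads) and 323 RPKM in forebrain (312 to 334, 3609 reads). The intervals did not overlap, and the forebrain value was 2.11-fold higher (1.97 to 2.26). This lay just past 2-fold, and Lnp fell just inside it when samples were divided by their upper quartile, with a log2 ratio of -0.99 in place of -1.07. Among all listed genes the ratio was at the 24.6th percentile. The antisense transcript 4930445N08Rik, which shares no exon bases with Lnp, had 0 and 7.85 RPKM, the latter from 3 reads.

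Among 8 other genes that shape the endoplasmic reticulum, 4 were at least 2-fold higher in forebrain, none in ES cells, and the median log2 ratio was -0.84. Rtn1, a reticulon abundant in neurons, had 15.1 RPKM in ES cells and 231 in forebrain. Atl1, an atlastin that fuses tubules, had 17.3 and 198 RPKM, Reep5 had 177 and 604 and Rtn3 had 570 and 1290. The broadly expressed atlastins Atl2 and Atl3 lay within 2-fold, with log2 ratios of 0.33 and 0.06.

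Mtx2 (ENSMUSG00000027099, chr2:74663860-74716488 in mm9), the closest gene on the telomeric side, codes for metaxin 2, a part of the import and sorting machinery of the mitochondrial outer membrane. It had 724 RPKM in ES cells (694 to 756, 2181 reads) and 897 RPKM in forebrain (869 to 925, 4023 reads). The forebrain value was 1.24-fold higher (1.17 to 1.30), a difference beyond counting error but within 2-fold. With Evx2 and Lnp it was 1 of 3 flanking genes within 100 kb of the cluster, and it was the highest of them in both samples. The pseudogene Gm14425 in its intron had 42.3 and 23.0 RPKM from 21 and 17 reads.

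Among 7 genes for metaxins and their partners, 3 were at least 2-fold higher in ES cells, 1 in forebrain, and the median log2 ratio was 0.37. Samm50, the channel of the sorting machinery, had 4478 and 1748 RPKM in ES cells and forebrain, Tomm40, the import channel, had 1773 and 573, and Vdac1, a pore of the outer membrane, had 5404 and 2341. The paralog Mtx3 went the other way, with 119 RPKM in ES cells and 295 in forebrain, while Mtx1 had 916 and 745 RPKM. After division by the RPKM totals, Vdac1 fell inside 2-fold.

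Chn1 and Atf2 lie 41.2 kb apart on the far side of the centromeric desert, on the same strand. They differed in direction in the values as deposited, but not after division by the RPKM totals. Chn1 (ENSMUSG00000056486, chr2:73448717-73613403 in mm9) codes for chimaerin 1, a protein that inactivates the GTPase RAC downstream of Eph receptors in growing axons. It had 386 RPKM in ES cells (367 to 405, 1626 reads) and 939 RPKM in forebrain (915 to 963, 5901 reads). Chn1 was thus 2.44-fold higher in forebrain (2.30 to 2.57). The antisense transcript Gm13706 shares 533 of its 636 exon bases with Chn1 and had 9.60 and 25.8 RPKM, while Gm13704 shares 220 of its 3049 bases and had 62.7 and 128 RPKM. Whether the counting used the strand is not given in the sources used here, and if it did not, reads in these shared bases could not be assigned to either gene. A small RNA gene within Chn1 without shared exon bases, AL928889.1, had 4.24 and 27.0 RPKM from 1 and 10 reads.

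Of 8 genes of the Chn1 pathway, 4 were at least 2-fold higher in forebrain and 1 in ES cells, with a median log2 ratio of -0.94. Its paralog Chn2 had 19.2 RPKM in ES cells and 81.1 in forebrain, a 4.21-fold difference. The ligand Efnb3 had 23.8 and 480 RPKM, and the adaptor Nck2 and the GTPase regulator Bcr had 97.1 and 348 RPKM and 191 and 417 RPKM. The receptor Epha4 had 3256 RPKM in ES cells and 1560 in forebrain, and its log2 ratio of 1.06 fell inside 2-fold both after division by the RPKM totals and per 1000000 reads on genes.

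Atf2 (ENSMUSG00000027104, chr2:73654566-73730696 in mm9) codes for a leucine zipper transcription factor that is activated by stress kinases and binds DNA with JUN. It had 390 RPKM in ES cells (376 to 405, 2850 reads) and 324 RPKM in forebrain (314 to 335, 3534 reads). The ES cell value was 1.20-fold higher (1.14 to 1.26), but after division by the RPKM totals the log2 ratio of 0.26 became -0.01. Its direction therefore rested on the scaling of the tables. Of 8 partners and kinases of ATF2, 3 were at least 2-fold higher in forebrain and none in ES cells, with a median log2 ratio of -0.81. Jun had 61.3 and 920 RPKM, Jund had 271 and 868, and Creb5 had 0.40 from a single read and 31.8 RPKM. The closest paralog, Atf7, had 80.3 and 72.3 RPKM.

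At the far end of the telomeric desert, Hnrnpa3 and Nfe2l2 converge, with 6.1 kb between their ends, and their ratios had opposite signs. Nfe2l2 (ENSMUSG00000015839, chr2:75513570-75542698 in mm9) codes for NRF2, the transcription factor that switches on genes against oxidative stress and that KEAP1 otherwise marks for degradation. It had 566 RPKM in ES cells (540 to 593, 1761 reads) and 236 RPKM in forebrain (222 to 250, 1092 reads). Nfe2l2 was 2.40-fold higher in ES cells (2.23 to 2.59), and was the only flanking gene past 2-fold in this direction. Its ratio was at the 80.9th percentile of listed genes and the 86.1st percentile of protein-coding genes with at least 20 reads in either sample. A U6 small nuclear RNA gene in its intron, on the same strand and without shared exon bases, had 74.0 and 8.27 RPKM from 6 reads and 1 read.

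Among 13 regulators, partners and targets of NFE2L2, 4 were at least 2-fold higher in ES cells, 1 in forebrain and 8 within 2-fold, with a median log2 ratio of 0.35. Of the target genes, Nqo1, a quinone reductase, had 1924 RPKM in ES cells and 213 in forebrain, and Hmox1, which breaks down haem, had 922 and 243. Srxn1, which repairs oxidised peroxiredoxins, had 708 and 278 RPKM. In the other direction, the cystine transporter Slc7a11 had 1.73 RPKM in ES cells and 46.9 in forebrain, a 27.1-fold difference. The targets thus did not share a direction, and Gclc and Txnrd1 were within 2-fold, at log2 ratios of 0.05 and 0.35. Among the regulators and relatives, Keap1 had 311 and 378 RPKM, Nfe2l1 had 1041 and 1020, and Nfe2l3 had 96.9 and 47.7, the last just past 2-fold, and it fell inside that limit after division by the RPKM totals and per 1000000 reads.

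Hnrnpa3 (ENSMUSG00000059005, chr2:75497318-75507464 in mm9) codes for a nuclear RNA-binding protein of the hnRNP A/B family. It had 367 RPKM in ES cells (350 to 386, 1624 reads) and 669 RPKM in forebrain (650 to 689, 4409 reads), a 1.82-fold difference (1.72 to 1.93). After division by the RPKM totals it lay past 2-fold in forebrain, with a log2 ratio of -1.14 in place of -0.86. These values are uncertain, because 30 other annotated genes aligned to 96.7% of its exon bases at 90% identity or more. The closest, the pseudogene Gm11847 on chromosome 4, matched 74.3% of them at 99.6% identity and had 327 and 695 RPKM, nearly the values of Hnrnpa3. With the reads of all copies added, the log2 ratio moved from -0.86 to -0.97, on 3061 and 8915 reads. No copy of this kind was found for the other 7 flanking genes. A predicted microRNA, AL772404.1, shares 57 of its 74 bases with its exons and had 249 and 425 RPKM.

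None of the 5 other genes of the hnRNP A/B and D family was past 2-fold, and their median log2 ratio was -0.24. Hnrnpa1 had 1455 RPKM in ES cells and 746 in forebrain, while Hnrnpa2b1 had 3089 and 2943. Copies were sought only for the flanking genes and their neighbours, so whether copies affect the values of these relatives was not tested. Hnrnpd and Hnrnpa0 were near the limit, with log2 ratios of -0.99 and -0.94, and both passed it in forebrain after division by the RPKM totals and per 1000000 reads. Hnrnpa1, at 0.96, passed it in ES cells with division by the upper quartile.

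Agps (ENSMUSG00000042410, chr2:75670234-75769407 in mm9), the outermost gene, codes for the peroxisomal enzyme that forms the ether bond of plasmalogens, lipids that are abundant in the brain. It was the highest of the 8 genes in both samples, with 1877 RPKM in ES cells (1840 to 1910, 12885 reads) and 1669 RPKM in forebrain (1640 to 1690, 17080 reads). The ES cell value was 1.12-fold higher (1.1 to 1.15), and the log2 ratio of 0.17 became -0.10 after division by the RPKM totals. Its level was at the 92.3rd percentile of listed genes in ES cells and the 92.8th in forebrain.

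Of 7 genes of ether lipid synthesis and peroxisomal import, 1 was at least 2-fold higher in each sample and 5 were within 2-fold, with a median log2 ratio of -0.06. Pex7, the receptor that brings AGPS protein into the peroxisome, had 1104 RPKM in ES cells and 428 in forebrain. Pex6, a motor of receptor recycling, had 271 and 590 RPKM. Gnpat and Far1, the enzymes that act beside AGPS, had 1976 and 2528 RPKM and 875 and 912 RPKM.

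**Figure D2:**
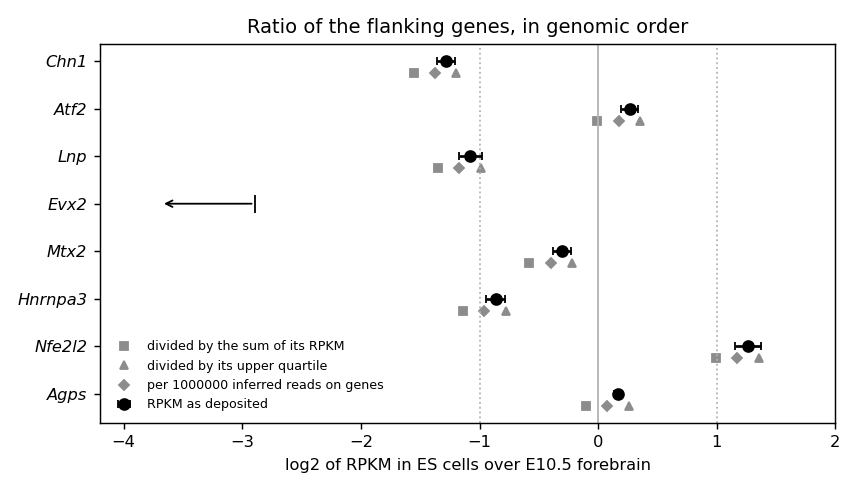
Log2 of the RPKM in ES cells divided by that in E10.5 forebrain for the 8 flanking genes in genomic order, as deposited (black points, 95% binomial intervals on reads) and after 3 other scalings (grey). Dotted lines mark 2-fold. The bar with an arrow marks the forebrain value of Evx2 over the floor of 3 reads in ES cells, 7.42-fold, which is no 95% interval (that starts at 5.67-fold). Nfe2l2 lay alone on the right, and Atf2 and Agps crossed 0 after division by the RPKM totals.

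Ranked by level, Agps was highest and Evx2 lowest in both samples, while the order between them changed. In ES cells, Agps was followed by Mtx2, Nfe2l2, Atf2, Chn1, Hnrnpa3 and Lnp, and the intervals of Atf2 and Chn1 and of Chn1 and Hnrnpa3 overlapped. In forebrain, Agps was followed by Chn1, Mtx2, Hnrnpa3, Atf2, Lnp and Nfe2l2, and the intervals of Chn1 and Mtx2 and of Atf2 and Lnp overlapped. All other neighbours in these orders differed beyond counting error. Nfe2l2 moved from the third rank in ES cells to the seventh in forebrain. Without Evx2, the highest value was 12.3 times the lowest in ES cells and 7.1 times in forebrain.

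Level and ratio were then set against distance from the cluster. The 3 genes within 100 kb, at 8.4 to 88.9 kb, had 0 to 724 RPKM in ES cells and 6.01 to 897 in forebrain. The 5 genes at 775.7 to 1067.0 kb had 367 to 1877 RPKM in ES cells and 236 to 1669 in forebrain, so the ranges of near and far genes overlapped in both samples. Spearman's rho of distance with the level was 0.55 in ES cells and 0.45 in forebrain, and that with the log2 ratio was 0.57, over the 8 genes, which share 1 chromosome and 1 library per sample. Without Evx2 these values were 0.32, 0.18 and 0.36. Atp5g3 is not in the set, although it lies nearer to the cluster than the 5 far genes. It had 7394 RPKM in ES cells and 5860 in forebrain, and rho with Atp5g3 added was not computed. As deposited, all 3 near genes and 2 of the 5 far genes had higher values in forebrain, and each side of the cluster held genes of both signs. After division by the RPKM totals, Atf2 and Agps joined them and Nfe2l2 alone kept a positive log2 ratio.

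The deserts held little RNA from annotated genes. Between Chn1 and Agps, 47 other genes are annotated, of which 33 were listed and 19 had at least 3 reads in either sample. In the centromeric desert, 609.0 kb from Atp5g3 to Lnp, 4 genes are annotated, 2 were listed and none reached 3 reads in a sample. In the telomeric desert, 780.8 kb from Mtx2 to Hnrnpa3, 10 are annotated, 5 were listed, and 2 pseudogenes had at least 3 reads. Of these, Gm13654 had 242 RPKM in ES cells and 133 in forebrain, and 13 other genes aligned to it. Gm13655, with no such copy, had 67.2 RPKM in ES cells from 41 reads and 0 in forebrain. The ES cell value was 20.4-fold higher than the floor of 3 reads in forebrain, without the counting error of the 41 reads.

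Outside the deserts, the most abundant neighbour was Atp5g3, next to Atf2, which codes for a ring subunit of the mitochondrial ATP synthase. It had 7394 RPKM in ES cells and 5860 in forebrain, above every member of the flanking set. Between Lnp and Evx2, the pseudogene Mrpl23-ps1 had 1220 and 2065 RPKM and matched Mrpl23 on chromosome 7 at 100% identity over 281 bases. Between Nfe2l2 and Agps, the pseudogene Gm13669 had 1623 RPKM in ES cells and 214 in forebrain and aligned over all of its bases to Gm6169, which had 1219 and 162 RPKM. Values of such copies cannot be assigned to this region with certainty.

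The remaining transcripts were low. In the same interval Gm13657 had 8.61 and 1.27 RPKM and E030042O20Rik, next to Nfe2l2, had 17.1 and 13.9. Around Atf2, Gm10822 had 8.42 and 8.83 RPKM and Gm13640, a pseudogene with 4 aligned copies, had 22.7 and 17.5. Within the cluster, Hoxd8 had 0 and 1.19 RPKM, Hoxd3 had 0.70 and 0.14 and Hoxd4 had 1.43 and 0. Of the 33 listed genes, 9 were at least 2-fold higher in ES cells, 7 in forebrain and 17 within 2-fold, with a median log2 ratio of 0.30. Among the 10 with at least 20 reads these numbers were 2, 1 and 7. Over all listed genes, 23.3% were at least 2-fold higher in ES cells and 25.8% in forebrain. The counts of 9 and 7 in 33 lie near these shares.

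**Figure D3:**
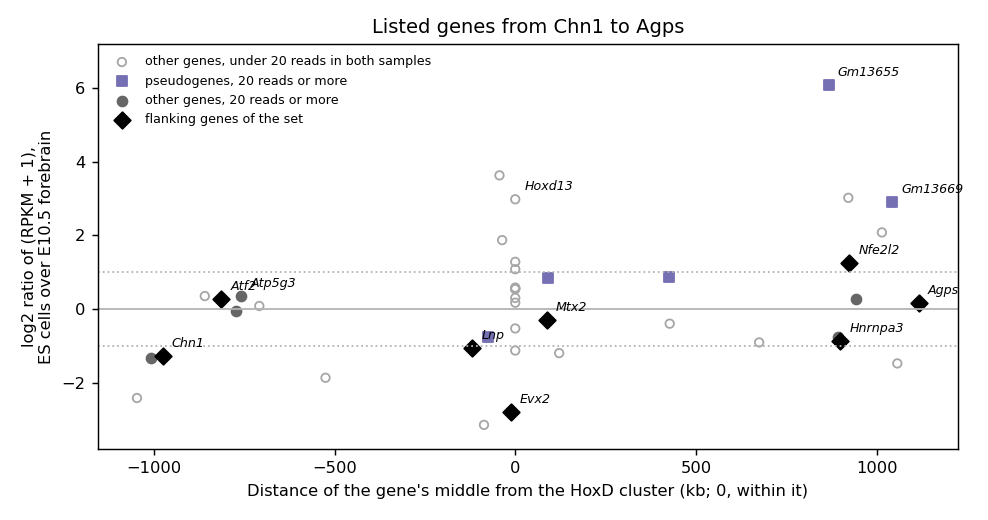
Log2 ratio of RPKM + 1, ES cells over E10.5 forebrain, of the listed genes from Chn1 to Agps against the distance of their middle from the HoxD cluster in kb. Open circles are genes with under 20 reads in both samples, many of them in or near the cluster, and the deserts hold few points. Nfe2l2 was the single flanking gene (diamonds) above the upper dotted line of 2-fold.

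**Figure D4:**
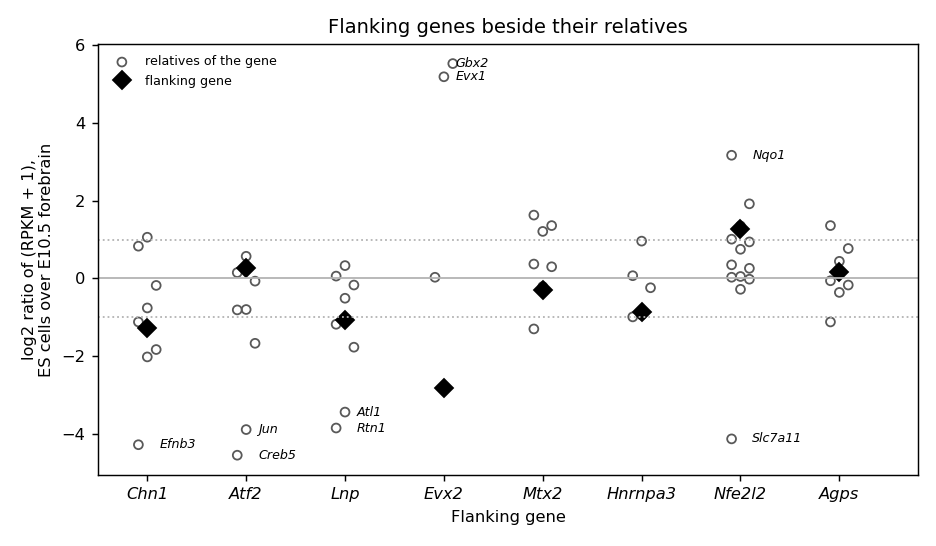
Log2 ratio of RPKM + 1, ES cells over E10.5 forebrain, of each flanking gene (diamond) and of the genes of its pathway or family (circles). Dotted lines mark 2-fold. Evx2 lay below its 3 relatives, and the other 7 genes lay within the range of theirs.

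Over all 59 relatives, 11 were at least 2-fold higher in ES cells and 14 in forebrain, with a median log2 ratio of -0.02. Other scalings moved these counts to between 8 and 13 in ES cells and between 14 and 19 in forebrain. As deposited, the shares over all listed genes were 23.3% and 25.8%. Over protein-coding genes with at least 20 reads in either sample they were 17.0% and 30.7%. The 59 relatives lie near these shares, and the counts per list were not tested against them.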

How the data were processed

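RNA-seq was analysed for 2 samples, 1 of ES cells and 1 of E10.5 forebrain, grouped by their labels. The authors depleted ribosomal RNA, made strand-specific single-end libraries (TruSeq Stranded Total RNA), mapped reads to NCBIM37 (mm9) through HTSstation (Bowtie 0.12.7 in the submitters' processing notes) and deposited 1 RPKM value per gene. The labels and the methods state different read lengths. The scaling, the annotation release and the use of strand in counting are not given in the sources used here, and an absolute level is on the authors' scale.

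The 29311 listed genes, 26646 above 0 in ES cells and 27009 in forebrain, all matched GENCODE M1 by ID and coordinates. Many low deposited values lay near multiples of 1.22 per kb of exon in ES cells and 0.819 in forebrain, and this step was taken as 1 read. Of 5472 and 5936 low-value genes, 59.2% and 61.1% lay within 0.05 reads of a whole read, against 10% by chance. The others lay off these multiples. Reads were inferred from the step and rounded to whole reads. The inferred depth was 1.4 times higher in forebrain. At the inferred depths, 1 read per kb would have a far smaller value on the usual scale, per 1000000 reads. Either the deposited values exceed that scale or the inferred depth is too high, and which holds was not tested. Ratios were taken as log2(RPKM + 1), without a filter on low values except where a minimum of reads is stated. Intervals are exact Poisson for levels and exact Clopper-Pearson for ratios. With 1 sample per group no test was made, and a gene past 2-fold was called. Copies were sought with blastn 2.17.0 (90% identity over 200 bases), and other steps used Python 3.11.15, numpy 2.4.6, pandas 2.3.3, scipy 1.17.1 and matplotlib 3.10.9. The steps were tested on simulated data.

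Named were the 8 flanking genes, every listed gene between Chn1 and Agps with at least 3 reads in a sample, the relatives past 2-fold with the closest paralogs, and the 3 protein-coding genes nearest to Evx2. Other relatives, Gm13704, Gm11847, Gm6169 and Mrpl23 were named after their values were seen. The members and lists were chosen with earlier results of these data known. Atf7 and Mafg have 2 listed IDs each, and the longer protein-coding gene was used. Alternatives were pseudocounts of 0.1 and 5, division by the sum or upper quartile of RPKM, scaling per 1000000 reads, a minimum of 20 reads, a fold of 1.5 and leaving out Evx2. For distance they were the 5′ end of the gene and a cluster taken from Evx2 to Hoxd1. Adding the reads of copies to Hnrnpa3 was chosen after seeing the data.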

Additional observations from a re-analysis of the deposited data

How the results depend on the processing

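Of 88 alternative values, 67 stayed within counting error or within 1.5 times a count, 21 moved further and none was reversed past a threshold. Some of the 67 could not move, so their number is no measure of robustness. The 2 other definitions of distance left the ranks and thus rho unchanged, and a minimum of 20 reads kept all flanking genes. With division by the sum of RPKM, 0 in place of 1 flanking gene was at least 2-fold higher in ES cells and 4 in place of 3 in forebrain, where Hnrnpa3 was added at -1.14. The median log2 ratio was -0.86 for the flanking genes in place of -0.59 and 0.09 for the other genes between Chn1 and Agps in place of 0.30. This scaling takes 0.27 from ratios of abundant genes and less from those of low genes. The same division turned the log2 ratios of Atf2 and Agps to -0.01 and -0.10, all within 2-fold. With a pseudocount of 5, which draws low genes toward 0, 3 of those other genes in place of 7 were at least 2-fold higher in forebrain and their median was 0.12. With at least 20 reads in either sample, which leaves 10 of them, 2 in place of 9 were higher in ES cells and 1 in forebrain. Without Evx2, Spearman's rho with distance was 0.32 for the level in ES cells, 0.18 for that in forebrain and 0.36 for the log2 ratio, in place of 0.55, 0.45 and 0.57. The log2 ratio of Evx2 was -5.93 with a pseudocount of 0.1 and -1.14 with 5. No paired analysis was possible because each group has 1 sample. Depth limits Evx2, at 33 reads in forebrain and 0 in ES cells, and the Hoxd genes. With a single sample of each cell type, the spread between samples is not known.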
